A study of Macaca fascicularis with 6 samples.

Results

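The liver expression of 10 acute phase genes, read on 15 of the 54675 probe sets of the array, was compared between cynomolgus macaques (Macaca fascicularis) given a liver X receptor (LXR) ligand and cynomolgus macaques given vehicle. The genes are SERPINA3, LBP, HP, HPX, SAA1, SAA2, SAA4, CRP, ORM1 and ORM2. They were taken by gene symbol from an annotation that gives 19775 genes a probe set of their own. The list was chosen by measured values of this same comparison, the lower signals of SERPINA3 and LBP with the ligand, so the values below describe the members and are not tests of them. Liver RNA of 3 ligand-treated and 3 vehicle-treated animals had been hybridised to Affymetrix arrays, 1 animal on each. The ligand arrays carry the treatment label LXR and the letters GW in their titles, an abbreviation left unexplained there. The ligand's identity, dose, route and length of treatment and the age and sex of the animals are not given in the sources used here, and no allele, transgene or other treatment is named for either group. The array is a human one, and each macaque gene goes by the human symbol of the probe set that reads it.

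The acute phase response is the change in liver secretion that follows infection or injury. Interleukin-6 and interleukin-1 released by macrophages act on hepatocytes, where the transcription factors STAT3, C/EBP and NF-kappaB raise genes such as SAA1, SAA2, CRP and ORM1 and output of albumin and transferrin declines. LXR is a nuclear receptor for oxysterols that drives transcription of sterol export and lipid synthesis genes. In cultured human hepatocytes its ligands are also known to dampen the cytokine-driven rise of CRP, and in mice of HP.

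Of the 15 probe sets, 9 are annotated to 1 member alone and cover 6 genes: SERPINA3, LBP, HP, HPX, CRP and ORM1. A further 4 are shared by several members, which makes the 13 probe sets of the selection, and 2 more name 1 member beside a gene outside the list. SAA1, SAA2, SAA4 and ORM2 therefore have no probe set of their own here. SAA1, SAA2 and SAA4 lie next to each other in the macaque gene table used for names, and LBP lies next to BPI, a related lipid-binding gene. All 15 probe sets had a mean signal above the filter on dim probe sets, a mean of 129 over the 6 arrays.

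The deposited scaling left the arrays with similar levels. Median signals, in arbitrary units, were 129 to 139 on the ligand arrays and 111 to 139 on the vehicle arrays. Ligand array 1 stood apart on the first principal component, which held 23.0% of the variance, at -89.8, against 0.632 to 36.8 on the other 5 arrays. The 11 hepatocyte markers were bright on every array, with summed signals of 744930 to 788007 on the ligand arrays and 730162 to 798243 on the vehicle arrays, as for liver tissue. A pair of LXR targets served to check the treatment label. SREBF1, a regulator of lipid synthesis, had signals of 3826, 1289 and 3450 on the ligand arrays and 337, 408 and 541 on the vehicle arrays. ABCG1, a cholesterol transporter, had 940, 746 and 911 on the ligand arrays and 297, 356 and 362 on the vehicle arrays. Across the whole table, limma called 0 of 27304 probe sets tested (0%), while 1523 (5.58%) had an unadjusted p under 0.05.

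SERPINA3 had the largest log2 difference among the 15 probe sets. It encodes alpha-1-antichymotrypsin, an inhibitor of serine proteases that hepatocytes secrete in inflammation. Its probe set gave signals of 488, 493 and 521 on ligand arrays 1 to 3 and 1078, 2315 and 2503 on vehicle arrays 1 to 3. Every ligand array was below every vehicle array, and the lowest vehicle value, on array 1, stood well apart from the other 2. The log2 difference, ligand minus vehicle on log2(signal + 16), was -1.85 ± 0.32 (SE), or 3.60-fold lower with the ligand. Group means were 501 ± 17.8 on the ligand arrays and 1966 ± 774 on the vehicle arrays (SD, n = 3 each).

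LBP encodes the plasma protein that hands bacterial lipopolysaccharide to CD14 and so to the TLR4 receptor. On its brighter probe set (probe set a), signals were 1845, 2096 and 1969 on the ligand arrays and 7093, 3446 and 5118 on the vehicle arrays. The groups did not overlap, and the vehicle array that was lowest for SERPINA3, array 1, was the highest for LBP. The log2 difference was -1.34 ± 0.26 (SE), or 2.53-fold lower with the ligand, with means of 1970 ± 125 on the ligand arrays and 5219 ± 1826 on the vehicle arrays (SD, n = 3 each). The dimmer LBP probe set (probe set b) did not show this gap. It gave 1031, 423 and 316 on the ligand arrays and 839, 312 and 901 on the vehicle arrays, so the groups overlapped over nearly their whole range. Its log2 difference was -0.25 ± 0.49 (SE), less than its error, and was 0.092 without ligand array 3. The LBP difference thus rests on 1 of its 2 probe sets.

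Haptoglobin and haemopexin bind free haemoglobin and free haem in plasma. The probe set annotated to HP alone gave 11699, 23809 and 17299 on the ligand arrays and 29968, 20871 and 23809 on the vehicle arrays. Ligand array 2 lay inside the vehicle range, so the groups overlapped, and the log2 difference was -0.54 ± 0.26 (SE). Without ligand array 1, the array that stood apart, the HP difference was -0.28.

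A second probe set names HP together with HPR, the haptoglobin-related gene. Its signals were 201417, 145032 and 168321 on the ligand arrays and 120940, 177239 and 153714 on the vehicle arrays. The ordering of the arrays was close to the reverse of that on the HP probe set: ligand array 1 was the highest here and the lowest there, and vehicle array 1 the lowest here and the highest there. Its log2 difference was 0.19 ± 0.19 (SE), on the other side of 0. A probe set annotated to HPR alone had a log2 difference of -0.20 ± 0.32 (SE).

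HPX differed little between animals. Probe set a gave 83060, 86787 and 81039 on the ligand arrays and 91437, 87809 and 78040 on the vehicle arrays, and probe set b gave 109022, 95097 and 114875 on the ligand arrays and 90538, 100999 and 96565 on the vehicle arrays. Both overlapped between groups, with log2 differences of -0.034 ± 0.14 and 0.14 ± 0.15 (SE). The HPR and HP probe set and HPX probe set b had the most alike profiles of any pair of the 15, with a root-mean-square difference of 0.157 between their centred log2 values over the 6 arrays. These are among the 267 brightest probe sets tested, with mean signals from 35071 upward, whose median centred log2 value was 0.172 on ligand array 1 and between -0.075 and 0.028 on the other 5 arrays. With quantile normalization in place of the deposited scaling, the log2 differences were 0.12 for the HPR and HP probe set, -0.14 for HPX probe set a and 0.063 for HPX probe set b, all lower than with the deposited scaling and of the same sign.

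**Figure D1:**
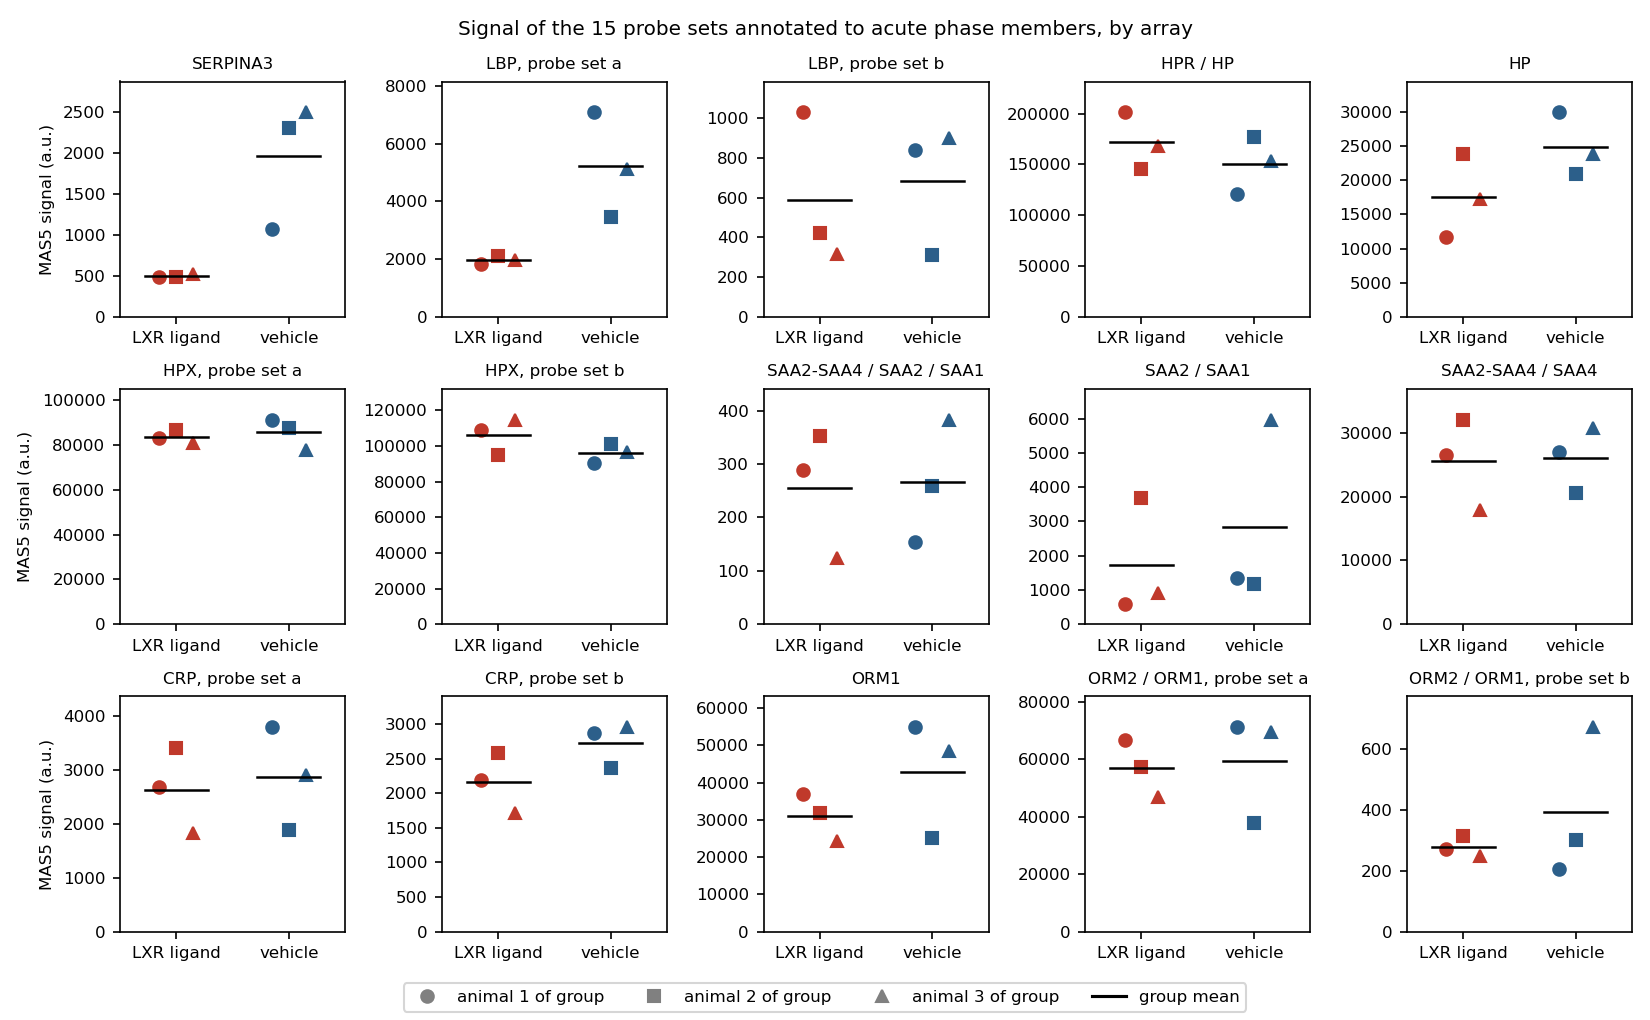
MAS5 signal in arbitrary units, on linear axes from 0, of the 15 probe sets annotated to the members, with 1 point for each animal, ligand left of vehicle, and a bar at the group mean. Ligand and vehicle points separate for SERPINA3 and LBP probe set a and overlap in the other 13 panels.

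SAA1 and SAA2 encode the inducible serum amyloid A proteins, apolipoproteins of high-density lipoprotein that climb steeply in inflammation, and SAA4 the constitutive form. The probe set shared by SAA1 and SAA2 gave 596, 3696 and 910 on the ligand arrays and 1358, 1161 and 5969 on the vehicle arrays. One animal in each group, on ligand array 2 and vehicle array 3, was far above the other 2. The highest signal was 6.20 times the lowest among ligand animals and 5.14 times among vehicle animals, so the log2 difference of -0.73 ± 0.71 (SE) is about as large as its error. It was 0.011 without vehicle array 3 and -1.50 without ligand array 2.

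The other SAA probe sets were closer to level. A dim one that also names the SAA2-SAA4 readthrough gene beside SAA1 and SAA2 gave 289, 353 and 124 on the ligand arrays and 154, 260 and 383 on the vehicle arrays, a log2 difference of -0.083 ± 0.47 (SE). The probe set of SAA4 and the readthrough gene gave 26551, 32093 and 17985 on the ligand arrays and 27066, 20510 and 30774 on the vehicle arrays, a log2 difference of -0.052 ± 0.24 (SE). On all 3 SAA probe sets ligand array 2 was the highest of its group and vehicle array 3 the highest of its group.

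CRP, a pentraxin that binds phosphocholine on bacteria and damaged cells, overlapped between the groups on both of its probe sets. Probe set a gave 2688, 3404 and 1828 on the ligand arrays and 3802, 1896 and 2911 on the vehicle arrays. Probe set b gave 2190, 2580 and 1715 on the ligand arrays and 2871, 2369 and 2960 on the vehicle arrays. The log2 differences were -0.11 ± 0.30 and -0.35 ± 0.22 (SE). Ligand array 2 was again the highest ligand array and ligand array 3 the lowest on both.

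ORM1 and ORM2 encode orosomucoid, a carrier of basic drugs and lipids in plasma. The ORM1 probe set gave 36847, 31896 and 24302 on the ligand arrays and 54950, 25210 and 48387 on the vehicle arrays. Vehicle array 2 lay between the ligand arrays, the other 2 vehicle arrays above all of them, and the log2 difference was -0.41 ± 0.28 (SE). It was -0.75 without vehicle array 2 and -0.19 without vehicle array 1.

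Of the 2 probe sets shared by ORM1 and ORM2, probe set a gave 66834, 57480 and 47010 on the ligand arrays and 71236, 37883 and 69588 on the vehicle arrays, a log2 difference of -0.019 ± 0.25 (SE). Probe set b was dim, with 272, 313 and 248 on the ligand arrays and 205, 300.2 and 671 on the vehicle arrays, a log2 difference of -0.31 ± 0.41 (SE). Vehicle array 3 alone lifted that vehicle mean, and without it the log2 difference was 0.15.

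Counted together, 12 of the 13 probe sets of the selection had a lower fitted value with the ligand and 1 a higher one, against 49.7% with a value below 0 among all probe sets tested. The groups did not overlap on 2 of the 13, both lower with the ligand, against 4.96% of all probe sets tested, and 0 were apart upward, against 5.99%. In 7 of the 13 the difference was smaller than its SE. Among the 6 genes with a probe set of their own, read on the brightest one, 5 were lower and the median log2 difference was -0.48, against 49.7% lower and a median of 0.0027 over all 13349 genes tested. Leaving out 1 array moved this median to between -0.71 without vehicle array 2 and -0.30 without vehicle array 1, and left 4 or 5 of the 6 genes lower. For HPX the brightest is probe set b, the only 1 of the 13 above 0. Since the same comparison put SERPINA3 and LBP on the list, nothing is read from these shares.

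**Figure D2:**
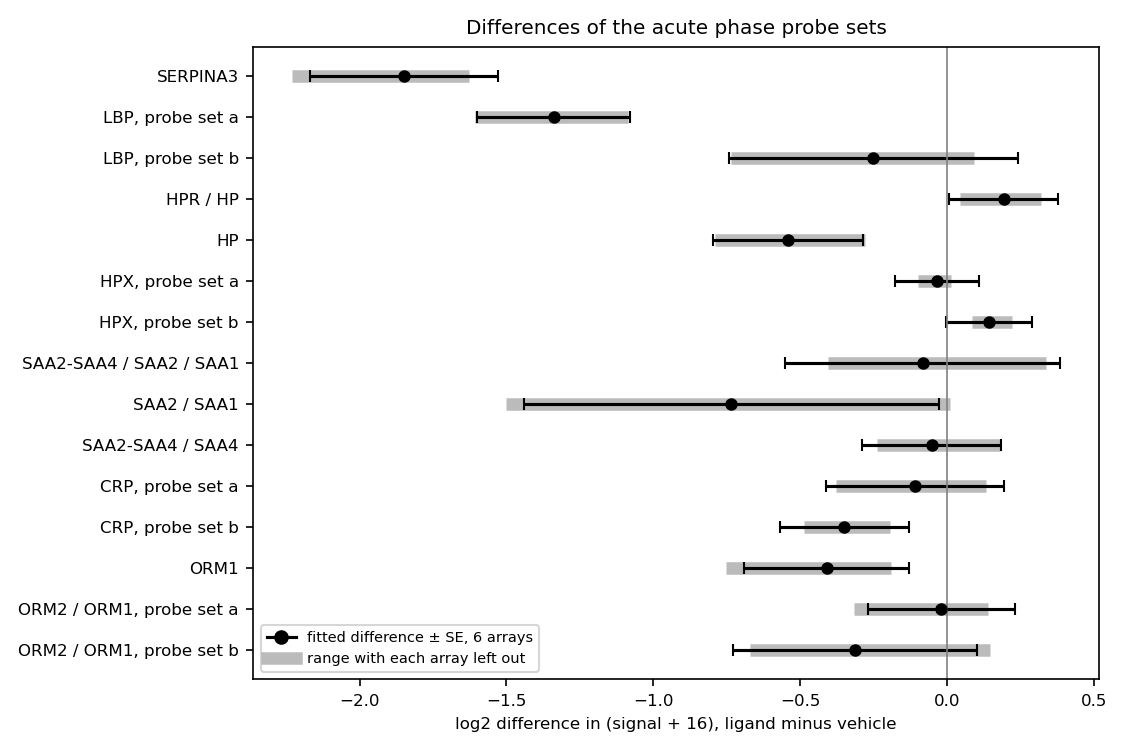
Fitted log2 difference in (signal + 16), ligand minus vehicle, for each probe set, with its SE (black) and its range when each of the 6 arrays is left out in turn (grey). SERPINA3 stays between -2.23 and -1.63 and LBP probe set a between -1.61 and -1.09, while the ranges of 8 of the 15 probe sets cross 0.

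The spread between animals of a group is a separate measure from the difference between the groups, although genes with a small spread more readily give a small p. For SERPINA3 the SD of log2(signal + 16) was 0.049 over the 3 ligand arrays and 0.66 over the 3 vehicle arrays, and for LBP probe set a it was 0.091 over the ligand arrays and 0.52 over the vehicle arrays. Among all probe sets tested, 1.79% had a smaller SD than SERPINA3 on the ligand arrays and 80.5% on the vehicle arrays. For LBP probe set a these shares were 5.74% on the ligand arrays and 69.8% on the vehicle arrays. These 2 probe sets were thus close to level among ligand animals and varied about 2-fold among vehicle animals. There the highest signal was 2.32 times the lowest for SERPINA3 and 2.06 times for LBP probe set a. LBP probe set b was level in neither group, with SDs of 0.86 on the ligand arrays and 0.83 on the vehicle arrays. With 3 animals a group these SDs are themselves imprecise, and the difference in spread was not tested.

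The inducible SAA probe set stood at the other end. Its SD was 1.36 on the ligand arrays and 1.29 on the vehicle arrays, larger than those of 96.9% and 96.4% of all probe sets tested. HPX probe set a, with 0.050 on the ligand arrays and 0.12 on the vehicle arrays, and probe set b, with 0.14 and 0.079 in the same order, were among the steadiest. ORM1 had 0.30 on the ligand arrays and 0.60 on the vehicle arrays. The dim probe set b of ORM2 and ORM1 had 0.16 on the ligand arrays and 0.84 on the vehicle arrays. The median over all probe sets tested was 0.36 in each group.

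**Figure D3:**
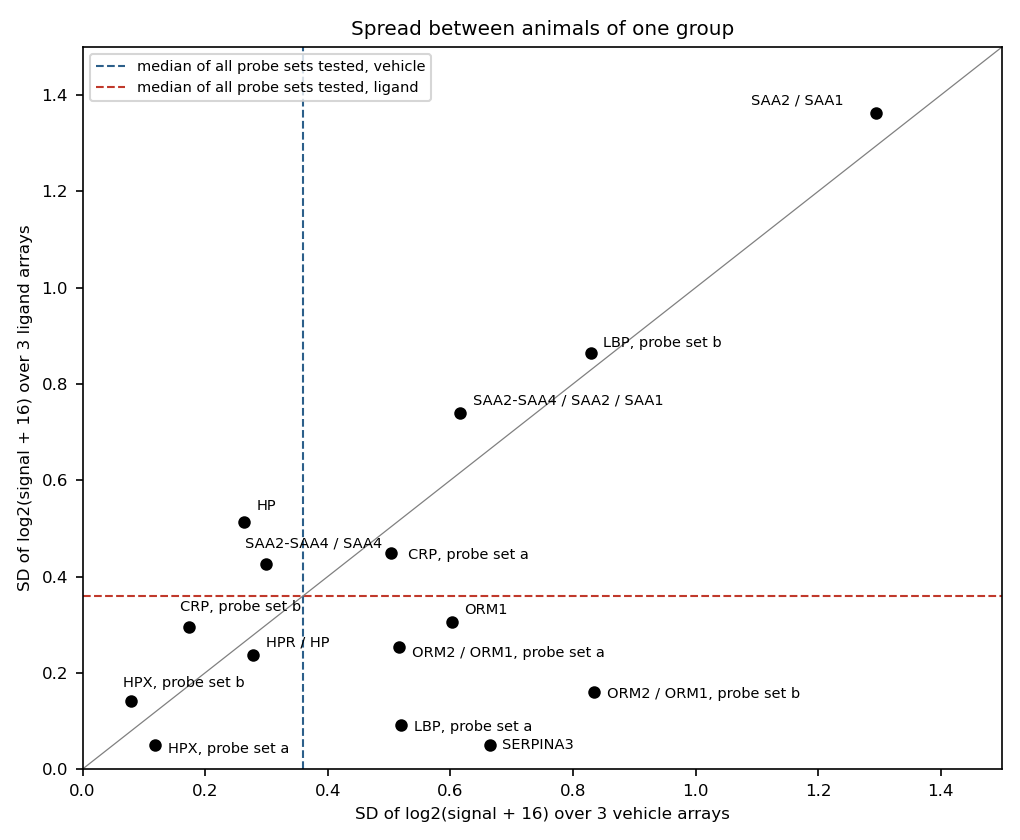
SD of log2(signal + 16) between the 3 ligand animals (vertical) and between the 3 vehicle animals (horizontal), 1 point for each probe set, with the median of all probe sets tested in each group (dashed, 0.36) and a line of equal spread. SERPINA3 and LBP probe set a lie at the bottom, far below the line. Probe set b of ORM2 and ORM1 also lies far below the line. The SAA2 and SAA1 probe set lies at the upper right near it.

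The animals were not ordered alike by all members. Within the vehicle group, array 2 was the lowest for 9 of the 15 probe sets, among them LBP, CRP and ORM1, and array 1 the lowest for SERPINA3. Within the ligand group, array 2 was the highest for 9 of the 15 and array 3 the lowest for 9. Several of the 15 read the same genes. The same counts over all probe sets tested were not computed, so nothing is read from these. SERPINA3 and LBP probe set a, the 2 with non-overlapping groups, had profiles that differed by a root-mean-square of 0.698 log2 units over the 6 arrays, and of 13348 genes 236 were closer to SERPINA3 than LBP was and 2820 closer to LBP than SERPINA3 was.

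The genes whose profile over the 6 arrays was nearest to that of SERPINA3 were FETUB, MYORG, LINC01588, RSPO2 and KCNH6, at root-mean-square differences of 0.364, 0.383, 0.398, 0.418 and 0.439 log2 units among 13343 genes. FETUB, a fetuin secreted by the liver, had signals of 2029, 4059 and 2307 on the ligand arrays and 6499, 14179 and 10325 on the vehicle arrays. Like SERPINA3, it was lowest among vehicle animals on array 1. The other 4 were dim on the ligand arrays, at 30.2 to 157.

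The genes nearest to LBP probe set a were PLPPR4, MRPL20-AS1, EGR1, CMAS and KDM8, at 0.174, 0.270, 0.277, 0.280 and 0.281 log2 units. PLPPR4, a phospholipid phosphatase-related gene, had 308, 391 and 260.1 on the ligand arrays and 1345, 535 and 966 on the vehicle arrays. EGR1, an immediate early transcription factor, had 1333, 1685 and 1591 on the ligand arrays and 4661, 4170 and 3853 on the vehicle arrays. CMAS, which activates sialic acid for glycoproteins, had 1086, 1066 and 1041 on the ligand arrays and 2499, 1600 and 1828 on the vehicle arrays. The choice of a gene by nearness to a profile with a gap between groups fixes such a gap, so these values only describe the match.

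**Figure D4:**
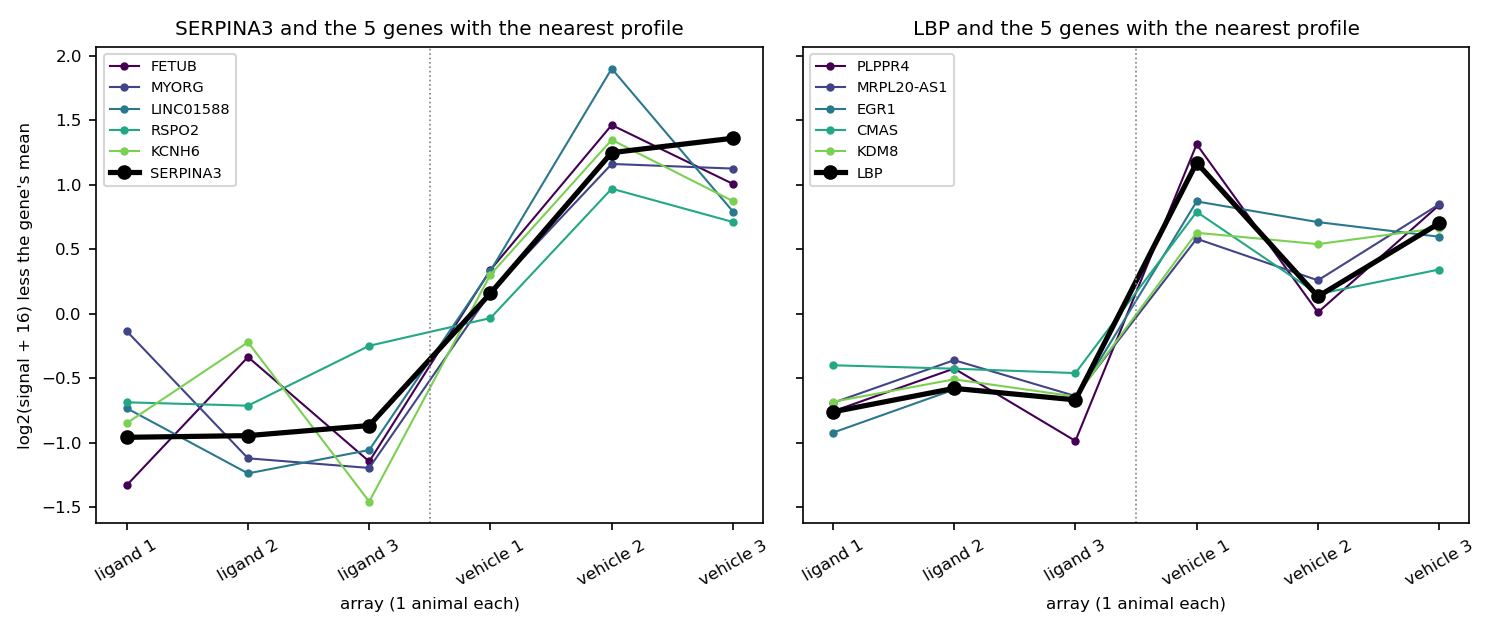
Log2(signal + 16) less each gene's own mean on the 6 arrays, ligand left of vehicle, for SERPINA3 (left, black) and LBP probe set a (right, black) with the 5 nearest genes of each. SERPINA3 and its neighbours are lowest among the vehicle arrays on array 1, while LBP and PLPPR4 peak on vehicle array 1.

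Other positive acute phase proteins, those that the response raises, went both ways. Of 27 listed genes 25 were measured: 11 were lower and 14 higher with the ligand, the median log2 difference was 0.0061, and limma called 0 of them, with 0 at an unadjusted p under 0.05 against 6.12% of all genes tested. IL1RN, the decoy ligand of the interleukin-1 receptor, had a log2 difference of -0.66 ± 0.31 (SE), with 225, 363 and 248 on the ligand arrays and 389, 390 and 559 on the vehicle arrays. It was the 1 gene of the 25 whose groups did not overlap downward, against 5.21% of all genes. CP, the copper carrier ceruloplasmin, had a log2 difference of 0.24 ± 0.16 (SE), and FGB, a fibrinogen chain, 0.25 ± 0.18 (SE). Their probe sets disagreed, with 1 of 3 lower for CP and 1 of 2 lower for FGB. CD14, the lipopolysaccharide co-receptor that LBP serves, had 0.39 ± 0.21 (SE).

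Among negative acute phase proteins, those that the response lowers, all 14 listed genes were measured, with 4 lower, 10 higher, a median log2 difference of 0.061 and 0 called by limma, although 2 had an unadjusted p under 0.05, against 6.12% of all genes. FETUB was lowest, at -1.88 ± 0.33 (SE) and a limma adjusted p of 0.370 over all probe sets tested, lower on every ligand array than on any vehicle array. SERPINA7, which carries thyroxine, had 0.36 ± 0.15 (SE), with 41838, 39380.5 and 45349 on the ligand arrays and 36268, 32870 and 29846 on the vehicle arrays, higher on every ligand array. FETUB and SERPINA7 were the 2 genes of the 14 whose groups did not overlap, against 5.21% of all genes lower in this way and 6.21% higher. TF, the iron carrier, had -0.71 ± 0.32 (SE), with 1 of its 3 probe sets lower and 2 higher, and AHSG, a fetuin like FETUB, had 0.28 ± 0.17 (SE). ALB, the plasma albumin, had 0.077 ± 0.15 (SE).

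Of 19 cytokine and receptor genes 15 were measured, with 8 lower, 7 higher, a median log2 difference of -0.083 and 0 called by limma, although 2 had an unadjusted p under 0.05, against 6.12% of all genes. The interleukin-6 gene itself was below the filter, and its probe set read 108, 191 and 41.5 on the ligand arrays and 92.1, 78.2 and 56.3 on the vehicle arrays. IL6R, which binds interleukin-6 on hepatocytes, had 2869, 3785 and 3721 on the ligand arrays and 4004, 8386 and 4818 on the vehicle arrays. Its log2 difference was -0.66 ± 0.27 (SE) at a limma adjusted p of 0.874, with both of its probe sets lower. IL1R2, a decoy receptor for interleukin-1, had 1918, 3540 and 3033 on the ligand arrays and 3951, 4624 and 4921 on the vehicle arrays, a log2 difference of -0.71 ± 0.25 (SE) at a limma adjusted p of 0.829. These 2 of the 15 genes were the ones whose groups did not overlap, both lower with the ligand, against 5.21% of all genes lower in this way and 6.21% higher. IL6ST, the shared signalling receptor of the interleukin-6 family, had 0.39 ± 0.35 (SE), with 2 of its 5 probe sets lower. IL1RAP, the interleukin-1 co-receptor, had -0.36 ± 0.32 (SE).

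For signalling and transcription factors, 25 of 29 were measured, with 17 lower and 8 higher, against 49.7% of all genes lower. Limma called 0 of them, and 1 had an unadjusted p under 0.05, against 6.12% of all genes. The median log2 difference of -0.19 was the lowest of the 6 lists. CEBPA, a factor of hepatocyte gene expression, had 12618, 10917 and 10107 on the ligand arrays and 22342, 12581 and 16381 on the vehicle arrays, a log2 difference of -0.57 ± 0.22 (SE) at a limma adjusted p of 0.873. Ligand array 1 lay just above vehicle array 2. JUN, an immediate early factor, had -0.44 ± 0.20 (SE) with all 4 probe sets lower, and RELA, an NF-kappaB subunit, -0.42 ± 0.23 (SE) with both probe sets lower. PIAS3, an inhibitor of STAT3, had 0.76 ± 0.43 (SE). STAT3 itself had -0.15 ± 0.21 (SE), with all 4 probe sets lower, and SOCS3, a feedback inhibitor that STAT3 induces, -0.71 ± 0.58 (SE), with 3 of its 4 probe sets lower. SOCS3 read 407, 457 and 517 on the ligand arrays and 562, 318 and 2409 on the vehicle arrays. Its signal on vehicle array 2 was below every ligand array, and that on vehicle array 3 was far above all others. STAT3, SOCS3, ALB, HPR, the interleukin-6 gene, VWF and the red cell markers were named for their roles after their values were seen. The groups did not overlap for 4 genes downward and 1 upward, against 5.21% and 6.21% of all genes in the same order. These 5 genes became 6 to 10 when an array was left out, with 10 without vehicle array 2 and 8 without vehicle array 3 or ligand array 1, where fewer arrays make a gap easier to reach. The share of all genes apart was not computed for those fits.

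Of 10 LXR and corepressor genes, 6 were measured, with 2 lower, 4 higher, a median log2 difference of 0.15 and 0 called by limma, and 1 had an unadjusted p under 0.05, against 6.12% of all genes. TBL1X, a subunit of the NCOR corepressor complex, had 2639, 1713 and 2374 on the ligand arrays and 1274, 1453 and 1709 on the vehicle arrays, a log2 difference of 0.58 ± 0.24 (SE), with 1 of its 5 probe sets lower. HDAC3, the deacetylase of that complex, had 0.33 ± 0.25 (SE), and GPS2, a further subunit, 0.20 ± 0.26 (SE). NR1H3, which encodes LXR alpha, had 0.11 ± 0.23 (SE), less than its error.

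Of 13 binding partners and targets of the members 11 were measured, with 4 lower, 7 higher, a median log2 difference of 0.22 and 0 called by limma, although 2 had an unadjusted p under 0.05, against 6.12% of all genes. CD163, the macrophage receptor that takes up haptoglobin bound to haemoglobin, had 2228, 2283 and 1822 on the ligand arrays and 1441, 982 and 1470 on the vehicle arrays. Its log2 difference was 0.71 ± 0.23 (SE) at a limma adjusted p of 0.829, with the groups apart. CD163 was the 1 gene of the 11 whose groups did not overlap, against 6.21% of all genes apart upward. HMOX1, the haem oxygenase, had 5350, 3568 and 5086 on the ligand arrays and 2573, 1114 and 4593 on the vehicle arrays, a log2 difference of 0.95 ± 0.42 (SE) at a limma adjusted p of 0.880. KLK3, a serine protease bound by the SERPINA3 product, had -0.51 ± 0.29 (SE). Liver pieces hold more than hepatocytes, and in bulk RNA fewer cells of a type and less RNA per cell cannot be told apart.

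**Figure D5:**
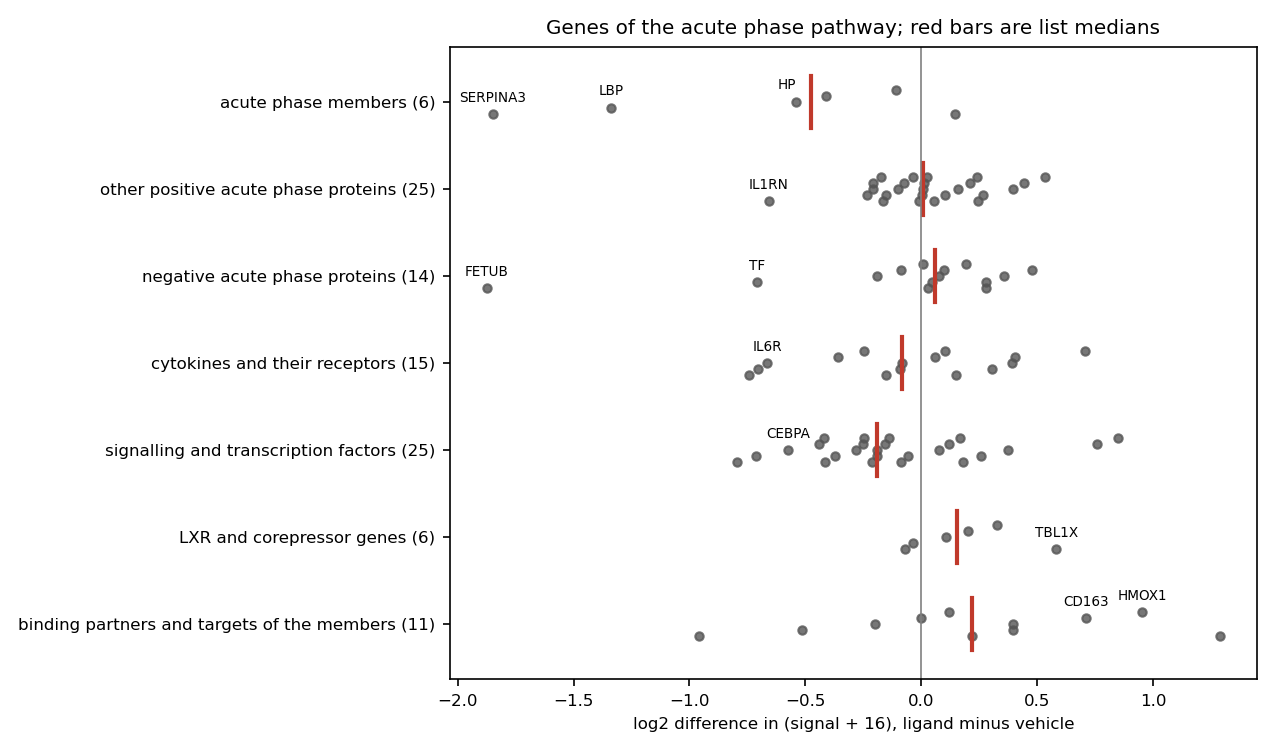
Log2 difference in (signal + 16), ligand minus vehicle, of every measured gene in each list on its brightest probe set, with the number measured in brackets and a red bar at the list median. SERPINA3 and LBP in the top row and FETUB in the third lie below -1.3, where no other plotted gene lies, and the medians of the 6 pathway lists lie between -0.19 and 0.22.

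Markers of other cell types were read on the same arrays. Of macrophages and Kupffer cells, the cell type that releases the cytokines, 9 markers were read. Each had a higher fitted value with the ligand. Taken singly, CD163, MARCO, C1QA, C1QB and C1QC were apart between the groups, and VSIG4, CD5L, MSR1 and CSF1R overlapped. The summed signal of all 9 was 12903 to 13924 on the ligand arrays and 5680 to 8486 on the vehicle arrays. These 2 ranges did not overlap. Sums of the 7 stellate cell and fibroblast markers did not overlap either, at 29091 to 43734 on the ligand arrays and 16031 to 24525 on the vehicle arrays, with 5 of the 7 higher. Over all genes tested, 49.7% were lower. COL3A1 and DCN were the brightest of the 7 and weighed most in that sum. DCN itself overlapped, with 14196, 17663 and 24392 on the ligand arrays and 13368, 8351 and 15147 on the vehicle arrays. Of 8 endothelial markers 7 were higher, while VWF had a log2 difference of -3.39, and their sums overlapped, at 8472 to 11097 on the ligand arrays and 8625 to 11051 on the vehicle arrays. Of 5 neutrophil markers above the filter 4 were lower, and the sums of all 8 were 1312 to 3135 on the ligand arrays and 1952 to 3160 on the vehicle arrays. The 3 red cell markers read here summed to 678 to 979 on the ligand arrays and 1069 to 11306 on the vehicle arrays. They were not ordered alike: HBB, the 1 above the filter, read 600 to 865 on the ligand arrays and 11085, 1255 and 828 on vehicle arrays 1 to 3. HBD read 17.6 to 33.9 on the ligand arrays and 154 to 186 on the vehicle arrays, and ALAS2 51.0 to 98.4 on the ligand arrays and 35.9 to 104 on the vehicle arrays. Of 4 lymphocyte markers above the filter 3 were higher. Sums of the 7 read here were 1619 to 2177 on the ligand arrays and 1532 to 1981 on the vehicle arrays. Of 3 bile duct markers above the filter 2 were lower. Sums of all 4 were 591 to 1614 on the ligand arrays and 781 to 1327 on the vehicle arrays. No marker of these lists was at 0 on any array. The part of these cell types in the values of SERPINA3, LBP and the other members was not tested. The log2 ratio of 3' to 5' signal, a measure of RNA integrity, overlapped between the groups. For GAPDH it was 1.170 to 2.052 on the ligand arrays and 0.991 to 1.701 on the vehicle arrays, a difference of 0.196. For ACTB it was 2.622 to 4.003 and 2.154 to 3.060 in the same order, a difference of 0.521. Exact two-sided permutation p-values were 0.6 for GAPDH and 0.4 for ACTB, where the smallest possible with 3 against 3 is 0.1. In each group array 3 had the highest ratio on both controls. Ligand array 3 was the lowest of its group for 9 of the 15 member probe sets, and vehicle array 3 for 1. Such counts were not computed over all probe sets tested. The part of RNA integrity in the member values was not tested.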

How the data were processed

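The deposited file holds linear intensity values. Per the submitters' processing notes they are MAS5 output; the software version, scaling target and detection calls are not given in the sources used here. The 2% trimmed mean was 500.1 on all 6 arrays. Gene symbols came from the platform annotation, in which 41097 probe sets have 1 symbol, 1801 several and 11777 none. The macaque gene table of assembly T2T-MFA8v1.1 served for names and neighbours only and holds 8 of the 10 members by symbol. Human probes can read macaque transcripts with lowered signal.

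Signals were taken as log2(signal + 16), which understates the change of dim probe sets. The 62 controls were left out, and the 27304 probe sets in the brighter part of the table, split at the median of the mean signals, were tested with limma 3.58.1 in R 4.3.3 (lmFit, eBayes with an intensity trend, two-sided, Benjamini-Hochberg over all tested, threshold 0.05). SEs are limma's moderated ones. A gene was read on its brightest tested probe set with 1 symbol. Fits were tested on simulated data. Figures used Python 3.11.15 and matplotlib 3.10.9.

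Members and lists were chosen with earlier results of these data known. The named genes are all members, SREBF1 and ABCG1, up to 4 genes of each list by smallest p, and the 5 nearest profiles to SERPINA3 and to LBP. With 3 animals a group, their number limits every value. Alternatives were other pseudocounts, scalings, filters, variance models, weights per array, a block for the replicate number, each array left out, probe sets averaged per gene and a threshold of 0.10.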

Additional observations from a re-analysis of the deposited data

How the results depend on the processing

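SERPINA3, the brighter LBP probe set and the probe sets of HP alone and ORM1 alone kept a negative log2 difference under all 16 alternatives. Their ranges were -2.23 to -1.63, -1.61 to -1.09, -0.79 to -0.28 and -0.75 to -0.19 in that order. CRP probe set b also stayed negative, from -0.49 to -0.19. The HPR and HP probe set, from 0.043 to 0.32, and HPX probe set b, from 0.063 to 0.22, stayed positive under all 16. Probe set a of ORM2 and ORM1 kept its sign under 13 of 16. Changes of filter or variance model and the replicate block cannot alter a fitted difference. For SERPINA3 and that LBP probe set, whose groups do not overlap, leaving out 1 array cannot change the sign. Their kept sign was thus largely fixed in advance and is no test of the differences. Probe sets averaged per gene left 1 member, against 2, with groups apart, since the 2 LBP probe sets disagree. Leaving out each array in turn gave 2 to 4 such members, 4 without ligand array 2, where fewer arrays make a gap easier to reach. It gave 0 to 1 probe sets called over the whole table: ACAA2 without vehicle array 2 (adjusted p = 0.00387) and SREBF1 without ligand array 2 (adjusted p = 0.0453), neither a member, both named after their values were seen. Genes with groups apart ran, with each array left out, from 1 to 5 for other positive proteins (1 with all arrays), 2 to 6 for negative ones (2), 3 to 4 for cytokines and receptors (2), 1 to 2 for LXR and corepressor genes (1) and 1 to 4 for binding partners (1), where fewer arrays make a gap easier to reach. The share of all genes apart was not computed for these fits, so nothing is read from these counts or from that of the members. List medians ran, with each array left out, from -0.096 (ligand array 2) to 0.064 (ligand array 1) for cytokines and receptors, which also gave 0.061 with no filter; from -0.21 (vehicle array 1) to -0.078 (vehicle array 3) for signalling factors, which gave -0.088 with probe sets averaged; from 0.024 (ligand array 1) to 0.28 (ligand array 2) for LXR and corepressor genes; and from 0.16 (vehicle array 1) to 0.34 (vehicle array 3) for binding partners. The cause was not tested. The replicate numbers did not pair the arrays, with correlations of same-numbered deviations of 0.040, -0.031 and 0.070, and the fit with that number as a block called 0 probe sets. Detection calls were not used, so low signals do not show whether a transcript was present.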
